A study of Homo sapiens with 11 samples.

Results

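The immediate early and Sprouty/ETV genes are 33 of the 35303 gene symbols in the RNA-seq count table, picked by symbol. They comprise 8 AP-1 and ATF genes, 6 EGR and NR4A genes, 6 other immediate early genes, 6 Sprouty and SPRED genes, 3 ETV genes and 4 other targets of ERK signalling. All 33 were found in the table and all 33 passed the filter on low counts, which left 16117 genes for testing.

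The cells were LX-2, 1 immortalised line of human hepatic stellate cells, labelled wild type and grown in medium with serum, and their RNA was sequenced. The groups were HIV-1+LTA (HIV-1 BaL at a multiplicity of infection of 0.1 plus 1 µg/ml LTA, lipoteichoic acid of Gram-positive bacteria), HIV-1 (the same virus dose alone) and PBS, all at 24 h. Each group had 3 libraries, 1 from each of 3 batches, and the batch number is the replicate number. No group received LTA alone, so LTA was measured only on top of the virus, and no time before 24 h was sampled. A peak list from 1 ChIP-seq library of HIV-1-treated cells, whose labels name another cell line (Lx5) than its title and give no antibody, was used for position only.

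Immediate early genes are switched on within minutes of a growth factor, stress or Toll-like receptor signal, without new protein synthesis, when ERK, p38 and JNK kinases act on factors already bound at their promoters. Serum response factor, with its ternary complex partners, binds CArG boxes at many of them. Most of their mRNAs decay quickly, so a sample taken a day later reads the steady state and not the first pulse. Sprouty and SPRED proteins are induced by ERK signalling and damp the RAS to ERK pathway, and the ETV1, ETV4 and ETV5 factors are transcriptional outputs of it. In stellate cells AP-1 factors and cyclin D1 accompany activation and proliferation.

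Promoter windows are shown for EGR1, EPHA2, SPRY4 and FOSB, which are given by library below. Those of JUN, BTG2 and SPRED1, also given by library, are not printed. SRF, the factor that reads CArG boxes, brings the windows shown to 5. Each runs from 250 bases before to 50 bases after the RefSeq start (RefSeq table of GRCh38.p14, 300 bases, 5′ to 3′ on the gene's strand), and the coordinates are those of the identical stretch in hg19. Capitals mark CArG boxes, the cAMP response element, GC boxes and an NF-kB site.
EGR1 (chr5:137800918-137801217, plus strand): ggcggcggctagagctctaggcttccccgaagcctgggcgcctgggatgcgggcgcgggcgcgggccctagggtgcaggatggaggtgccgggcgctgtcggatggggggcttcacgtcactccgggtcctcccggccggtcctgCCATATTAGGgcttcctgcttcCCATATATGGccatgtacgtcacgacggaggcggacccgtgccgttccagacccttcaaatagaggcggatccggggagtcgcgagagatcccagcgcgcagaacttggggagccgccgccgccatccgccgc
EPHA2 (chr1:16482515-16482814, minus strand): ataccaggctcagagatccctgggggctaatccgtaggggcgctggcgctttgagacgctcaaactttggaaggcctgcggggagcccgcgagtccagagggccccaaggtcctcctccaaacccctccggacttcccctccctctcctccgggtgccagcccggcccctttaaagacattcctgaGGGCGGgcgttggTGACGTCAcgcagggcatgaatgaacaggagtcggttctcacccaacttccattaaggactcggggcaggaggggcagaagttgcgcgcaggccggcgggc
SPRY4 (chr5:141703763-141704062, minus strand): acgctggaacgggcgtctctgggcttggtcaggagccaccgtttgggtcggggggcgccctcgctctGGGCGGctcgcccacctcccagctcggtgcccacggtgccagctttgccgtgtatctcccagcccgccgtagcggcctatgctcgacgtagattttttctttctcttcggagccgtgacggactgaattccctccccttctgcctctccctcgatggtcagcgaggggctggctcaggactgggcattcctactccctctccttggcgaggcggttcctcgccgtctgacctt
FOSB (chr19:45971004-45971303, plus strand): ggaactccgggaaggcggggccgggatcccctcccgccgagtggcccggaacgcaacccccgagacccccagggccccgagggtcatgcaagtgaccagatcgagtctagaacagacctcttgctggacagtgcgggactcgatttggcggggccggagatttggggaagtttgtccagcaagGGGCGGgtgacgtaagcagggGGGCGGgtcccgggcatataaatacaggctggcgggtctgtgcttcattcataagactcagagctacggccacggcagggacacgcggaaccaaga
SRF (chr6:43138757-43139056, plus strand): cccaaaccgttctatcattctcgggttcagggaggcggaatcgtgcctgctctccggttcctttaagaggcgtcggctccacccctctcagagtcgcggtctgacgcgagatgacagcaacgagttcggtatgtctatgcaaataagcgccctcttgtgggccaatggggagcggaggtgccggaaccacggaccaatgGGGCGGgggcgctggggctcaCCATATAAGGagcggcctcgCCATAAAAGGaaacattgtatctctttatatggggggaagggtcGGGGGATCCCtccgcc

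EGR1 held 2 CArG boxes, at bases -105 to -96 and -83 to -74 from the start, and SRF held 2, at -30 to -21 and -10 to -1. EPHA2 held a cAMP response element at -51 to -44 and a GC box at -64 to -59. SPRY4 held 1 GC box at -183 to -178, FOSB held 2, at -67 to -62 and -46 to -41, and SRF 1, at -51 to -46, with an NF-kB site at 35 to 44. The SPRY4 window lies inside the gene's span in hg19 (chr5:141689992-141706020, minus strand), so its RefSeq start is not the start of that span. No 2 of the marked matches overlapped. Windows were found for 26 of the 33 members, and FOSL1, EGR3, NR4A2, MYC, ETV4, ETV5 and CCND1 had none in the table. Exact matches were sought on both strands for the CArG box and the NF-kB site, by their usual consensus, and for the cAMP response element TGACGTCA, the AP-1 site TGANTCA, the ETS site CCGGAAGT and the GC box GGGCGG. A CArG box was present in 2 of 26 members (7.69%, EGR1 and SRF) and in 1.21% of 18123 promoters. The cAMP response element was in 2 of 26 (7.69%, JUND and EPHA2), against 2.46% of all promoters. The AP-1 site was in 2 of 26 (7.69%, FOSL2 and SPRED3), against 6.48%. The ETS site was in 0 of 26, against 5.77%, the NF-kB site in 1 of 26 (3.85%, SRF), against 11.9%, and the GC box in 20 of 26 (76.9%), against 54.8%. These are matches of letters in a short window and were not tested as binding sites.

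The libraries held from 50628144 to 90599780 counts. Batch 3 was set apart from batches 1 and 2 in all groups, and 71.2% of the genes tested differed between batch 3 and batches 1 and 2. HIV-1+LTA replicate 1 lay close to its batch partners: the median absolute difference in log2 CPM from the HIV-1 library of its batch was 0.0718 over all genes, against 0.179 in batch 2 and 0.155 in batch 3. The HIV-1 and PBS libraries of batch 1 were as close, at 0.0749, against 0.103 in batch 2 and 0.123 in batch 3. Stellate or mesenchymal markers were present (9 of 11 above 1 CPM in all 9 libraries), except DES and LRAT, which stayed at or below 0.261 CPM. Markers of other cell types were low: the summed level was at most 2.02 CPM for 6 hepatocyte markers, 2.84 CPM for 6 macrophage markers and 1.13 CPM for 4 endothelial markers. Of the T cell markers CD4 reached 18.2 CPM, CD2 was at 0 in all 9 libraries, and of 4 epithelial markers KRT7 reached 7.59 CPM. In bulk RNA, fewer cells expressing a gene and less RNA per cell cannot be told apart. The labels do not say whether batches were separate cultures, so p-values measure the spread between libraries.

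At 24 h the members' levels lay far apart. Per kilobase of exon (median CPM per kb over 9 libraries), CCND1, which encodes cyclin D1 and drives entry into S phase, stood at 73.9. It was followed by the AP-1 genes FOSL1 at 25.3, JUN at 21.9 and FOSL2 at 21.2, by the stress-inducible IER5 at 19.3, by the ephrin receptor EPHA2 at 15.9 and by SRF at 14.0. Several classical rapid responders were far lower, with FOS at 0.402 and FOSB at 0.789. NR4A1 stood at 0.513, NR4A3 at 0.32, NR4A2 at 0.127, EGR3 at 0.148 and EGR2 at 0.0767. Other immediate early members lay between, among them EGR1 at 8.73, IER2 at 6.12, MYC at 5.31 and ATF3 at 3.12 CPM per kb. Among the RAS pathway inhibitors SPRED1 was the highest at 12.6, and SPRY1, at 0.495, was the lowest. ETV5, at 10.99, was above ETV4, at 4.07, and ETV1, at 0.842. The ranges over the libraries overlapped between each of the 7 highest members and the next in that order. These ranges pool the batches, so their overlap does not show whether neighbours were separated within a library. Within each of the 9 libraries CCND1 lay above FOSL1, FOSL2 above IER5 and SRF above SPRED1 per kilobase of exon. The order of the other neighbours among them changed between libraries. In hg19 the genes given by library below lie as follows: FOSB at chr19:45971253-45978437 (plus strand), JUN at chr1:59242517-59249720 (minus strand), EGR1 at chr5:137801168-137804992 (plus strand), BTG2 at chr1:203274619-203278730 (plus strand), SRF at chr6:43139007-43149244 (plus strand), SPRED1 at chr15:38545037-38649450 (plus strand), SPRY4 at chr5:141689992-141706020 (minus strand), EPHA2 at chr1:16450832-16482564 (minus strand) and CCND1 at chr11:69455924-69469242 (plus strand).

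**Figure D1:**
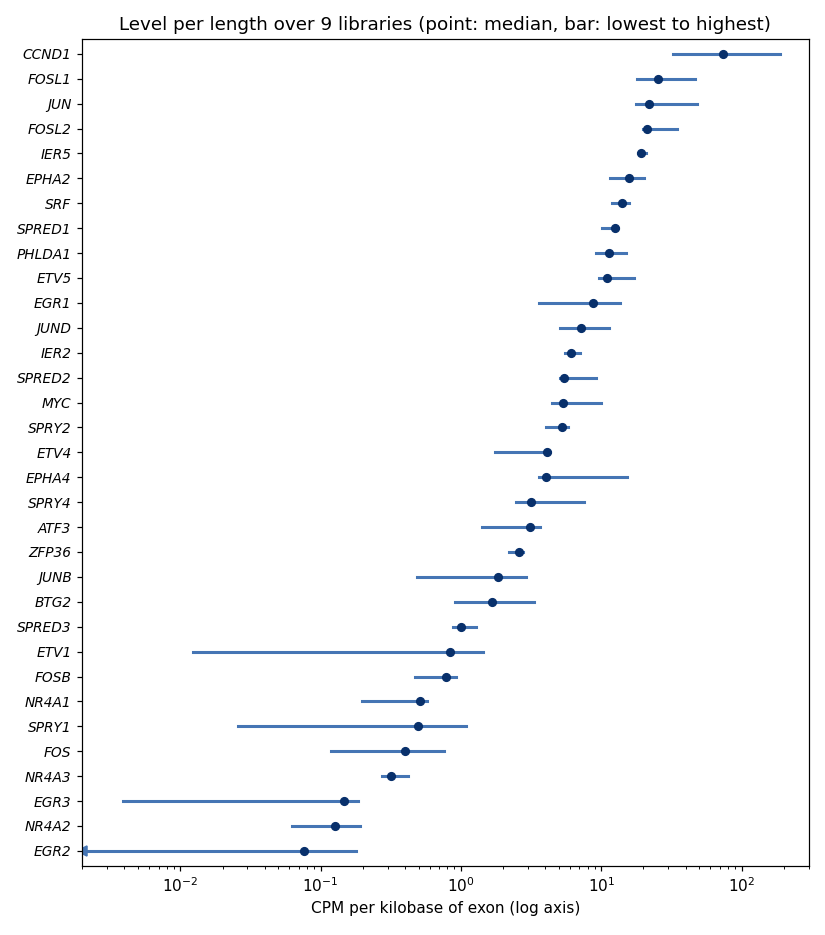
Level per length of the 33 members, in CPM per kilobase of exon on a log axis, with the median over 9 libraries as a point and the lowest to highest library as a bar. CCND1 stood at a median of 73.9 and EGR2 at 0.0767, and the bars of ETV1, SPRY1, EGR3 and EGR2 reach far to the left, the last to 0 (arrow).

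The first comparison, HIV-1+LTA with HIV-1, isolates LTA on the background of the virus. Its members leaned downward without passing the adjusted threshold, with a median within-batch difference of -0.023, -0.10 and -0.13 in batches 1, 2 and 3. In the edgeR quasi-likelihood fit with batch as a block, 0 of 33 members passed an adjusted p of 0.05, and 0 of all 16117 genes passed (0%). Of the members 12 stood above 0 and 21 below, with a median log2 fold change of -0.12, while the median of all genes was -0.0038. At an unadjusted p below 0.05 stood 12 members (36.4%), 2 higher and 10 lower, against 15.4% of all genes, of which 8.11% were higher and 7.32% lower. The 10 lower ones were FOSB, FOSL1, JUN, ATF3, MYC, SPRY4, SPRED1, ETV5, EPHA2 and CCND1, and the 2 higher ones BTG2 and EPHA4. DESeq2 with the same block called 0 of the 30 members that had an adjusted p, and 244 of 13401 genes (1.82%). The same direction in all 3 batches was seen for 16 members, 3 higher and 13 lower, against 33.8% of all genes (16.6% higher, 17.2% lower). No member had all 3 HIV-1+LTA libraries above all 3 HIV-1 libraries (2.09% of all genes), and 3 had them below (2.36% of all genes).

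The members' differences for LTA lay in batches 2 and 3. Their median absolute within-batch difference was 0.0729 in batch 1, 0.37 in batch 2 and 0.30 in batch 3, against 0.0718, 0.179 and 0.155 over all genes. Batches 2 and 3, which share no library, gave 26 of 33 members (78.8%) the same sign, 19 below and 7 above, against 65.4% of all genes. Batches 1 and 2 gave 18 (54.5%, all genes 50.4%), and batches 1 and 3 gave 21 (63.6%, all genes 51.7%). Leaving out HIV-1+LTA replicate 1 changed the count: in edgeR with the block, 13 members then passed (39.4%), against 14.6% of 16342 genes. Of these JUND, BTG2, SPRY1 and ETV1 were higher, 4 members against 7.07% of genes, and FOSB, FOSL1, JUN, ATF3, MYC, SPRY4, SPRED1, EPHA2 and CCND1 were lower, 9 members against 7.56% of genes. DESeq2 without that library called 11 members, and 15.9% of genes. Other libraries moved the DESeq2 count too: without HIV-1 replicate 1 it called 5 members (FOSL1, JUN, MYC, SPRY4 and EPHA2), and 3.04% of genes. In edgeR without the whole of batch 1, 8 members passed, BTG2 higher and FOSB, JUN, MYC, SPRY4, SPRED1, EPHA2 and CCND1 lower, against 9.69% of genes (5.19% higher, 4.5% lower). With no filter on low counts edgeR called 10 members, EGR1 and BTG2 higher and FOSB, FOSL1, JUN, MYC, SPRY4, SPRED1, EPHA2 and CCND1 lower, against 4.02% of 25265 genes (2.3% higher, 1.73% lower). HIV-1+LTA replicate 1 was singled out after its values were known, and why it lies near its batch partners was not tested.

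**Figure D2:**
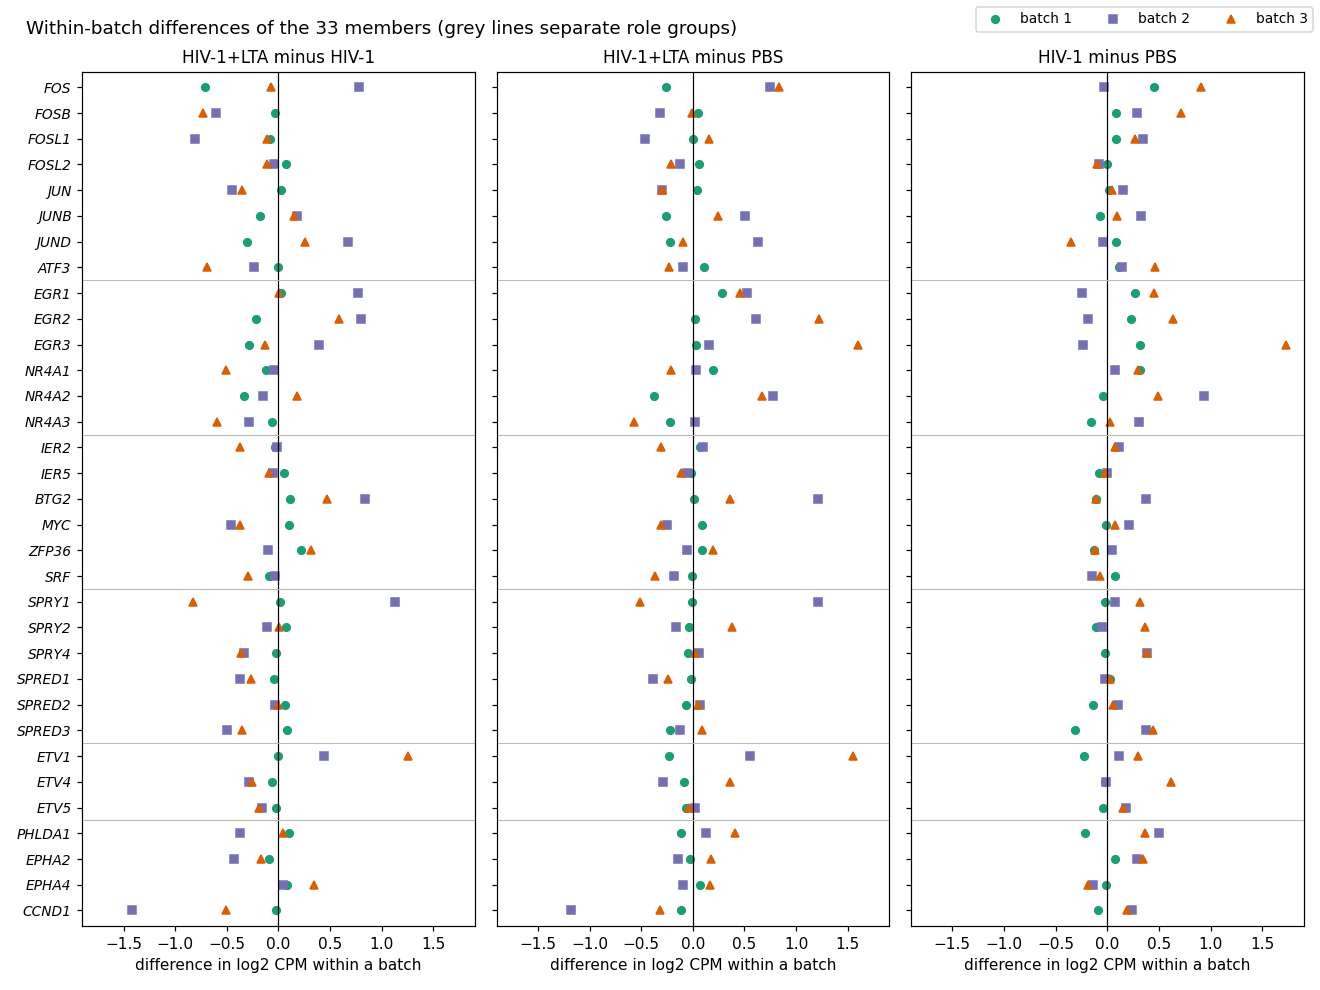
Differences in log2 CPM between libraries of the same batch for each member, in 3 panels (HIV-1+LTA minus HIV-1, HIV-1+LTA minus PBS, HIV-1 minus PBS), with 1 symbol per batch and 1 row per gene. In the left panel batch 1 sits near 0 for most members, while batches 2 and 3 put FOSB, JUN, MYC, SPRY4, SPRED1 and CCND1 below 0 and BTG2 above it.

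HIV-1+LTA against PBS compares the combined exposure with untreated cells. In edgeR 0 of 33 members and 0 of 16117 genes (0%) passed, and 18 members stood above 0 and 15 below, with a median of 0.014. Unadjusted, 6 members (18.2%) had a p below 0.05, EGR1 and BTG2 higher and JUN, SRF, SPRED1 and CCND1 lower, against 16.8% of all genes (8.67% higher, 8.13% lower). The direction was the same in all 3 batches for 8 members, 4 higher and 4 lower, against 34.5% of all genes (16.3% higher, 18.2% lower). No member had its HIV-1+LTA libraries all above the PBS libraries (1.93% of all genes). DESeq2 with the block called 1 of the 29 members with an adjusted p, EGR1, which rose, and 236 of 12239 genes (1.93%). The authors' deposited table, whose log2 fold changes were all within 0.01 of this fit, also calls EGR1 and no other member. Without HIV-1+LTA replicate 1, edgeR called 9 members, with EGR1, BTG2, SPRY1 and ETV1 higher and JUN, MYC, SRF, SPRED1 and CCND1 lower, against 16.2% of genes (7.57% higher, 8.63% lower). DESeq2 without it called 8, and 18.8% of genes. DESeq2 without PBS replicate 1 called BTG2 and SPRED1, 2 members, and 4.85% of genes. In edgeR without batch 1, 6 members passed, BTG2 higher and JUN, MYC, SRF, SPRED1 and CCND1 lower, against 10.7% of genes (4.97% higher, 5.75% lower). With no filter on low counts EGR1 and BTG2 were called higher and SPRED1 and CCND1 lower, 4 members against 4.14% of genes (2.05% higher, 2.08% lower).

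For the virus alone, HIV-1 libraries were set against PBS libraries. No member passed in edgeR or DESeq2, and of all genes 0 of 16117 (0%) passed in edgeR and 3 of 19990 (0.015%) in DESeq2. Of the 33 members 26 stood above 0 and 7 below, with a median log2 fold change of 0.10, against a median of -0.0015 over all genes. Unadjusted, FOSB, ATF3, SPRY4 and EPHA2 (4 members, 12.1%) had a p below 0.05 and were higher, against 4.21% of all genes (2.57% higher, 1.63% lower). In all 3 batches 7 members were higher and 3 lower, 10 in all, against 34% of all genes (15.3% higher, 18.7% lower). No member separated the groups in either direction (1.41% of genes higher, 1.34% lower). The members' median difference was -0.016 in batch 1, 0.11 in batch 2 and 0.26 in batch 3. All 6 EGR and NR4A genes and all 6 Sprouty and SPRED genes had a log2 fold change above 0. None of them passed the adjusted threshold. The direction was the same in all 3 batches for 1 of the EGR and NR4A genes and 0 of the Sprouty and SPRED genes. In batches 1, 2 and 3 the median difference was 0.25, -0.053 and 0.47 for the EGR and NR4A genes. It was -0.067, 0.090 and 0.34 for the Sprouty and SPRED genes. This comparison and the first one share the 3 HIV-1 libraries, so a gene high in those libraries is positive here and negative there. For FOSB, SPRY4 and EPHA2 the HIV-1+LTA libraries can be read against PBS instead, where their log2 fold changes were -0.09, 0.014 and 0.0060.

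AP-1 factors are dimers of FOS and JUN family proteins, joined by ATF3, a stress-induced member of the ATF family. The 8 genes had a median log2 fold change of -0.14 for HIV-1+LTA relative to HIV-1, with 3 above 0 and 5 below, of -0.067 relative to PBS, and of 0.18 for HIV-1 relative to PBS. FOSB, a FOS family member induced by growth factors, had 4.79, 3.36 and 2.63 CPM in HIV-1+LTA replicates 1, 2 and 3, 4.92, 5.13 and 4.38 CPM in the HIV-1 replicates, and 4.62, 4.21 and 2.65 CPM in the PBS replicates. In batches 2 and 3 HIV-1+LTA lay well below HIV-1, in batch 1 the 3 libraries were alike, and the ranges of all groups overlapped. The edgeR log2 fold change of FOSB was -0.45 (SE 0.153, adjusted p 0.226) for HIV-1+LTA relative to HIV-1, -0.09 (SE 0.152, adjusted p 0.790) for HIV-1+LTA relative to PBS, and 0.36 (SE 0.151, adjusted p 0.946) for HIV-1 against PBS.

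JUN, the archetypal AP-1 subunit and a substrate of JNK, had 70.9, 64.5 and 138 CPM in HIV-1+LTA replicates 1, 2 and 3, 69.7, 88.0 and 176 CPM in HIV-1 and 69.0, 79.4 and 169.6 CPM in PBS. HIV-1+LTA was the lowest library of batches 2 and 3 and the highest by a small margin in batch 1. Its log2 fold change was -0.26 (SE 0.0781, edgeR adjusted p 0.203) against HIV-1 and -0.18 (SE 0.0778, edgeR adjusted p 0.277) against PBS. Without HIV-1+LTA replicate 1 these were -0.39 (SE 0.0518, adjusted p 0.000364) and -0.31 (SE 0.0519, adjusted p 0.00159) in edgeR. That library was singled out after its values were known. Without HIV-1+LTA replicate 2 the edgeR values were -0.19 and -0.11.

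The other AP-1 genes were mixed. FOSL1, which encodes FRA-1 and is itself stabilised by ERK, differed by -0.083, -0.81 and -0.11 between HIV-1+LTA and HIV-1 in batches 1, 2 and 3, and ATF3 by -0.0078, -0.24 and -0.69. JUND, the AP-1 subunit that is abundant in resting cells, went the other way in 2 batches, by -0.31, 0.67 and 0.25. FOS had only 19 to 163 counts per library and its differences of -0.71, 0.78 and -0.076 share no direction. JUNB, whose exons share 259 bases with HOOK2 on the opposite strand, and FOSL2 had log2 fold changes of 0.048 and -0.028 in this comparison, with SE 0.165 and 0.0564. None of these 6 passed in the edgeR or DESeq2 fit of all 9 libraries with the filter on low counts. With no filter FOSL1 passed in edgeR, at -0.33 (adjusted p 0.00067).

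Of the EGR zinc-finger factors and the NR4A orphan nuclear receptors, EGR1 was the one with appreciable RNA. The median log2 fold change of the 6 genes was -0.057 for HIV-1+LTA relative to HIV-1 and 0.29 relative to PBS, with 5 above 0. For HIV-1 relative to PBS it was 0.20 with all 6 above 0, of which 1 had the same direction in all 3 batches. EGR1, which links growth factor and stress signals to later gene programmes, had 33.4, 42.8 and 15.5 CPM in HIV-1+LTA replicates 1, 2 and 3, 32.9, 25.1 and 15.5 CPM in HIV-1, and 27.4, 29.8 and 11.3 CPM in PBS. HIV-1+LTA lay above PBS in each batch, by 0.29, 0.52 and 0.45 on the log2 scale, although the ranges of the groups overlapped and batch 3 was lower throughout. The log2 fold change against PBS was 0.42 (SE 0.124, adjusted p 0.0439) in DESeq2 with the block, the same value in the authors' deposited table, and 0.43 (SE 0.126, adjusted p 0.205) in edgeR. In DESeq2 fits that left out 1 of the 9 libraries, EGR1 passed in 1 and did not pass in 8, with log2 fold changes of 0.25 to 0.51 and adjusted p of 0.00702 to 0.9997. Only without HIV-1 replicate 2 was it called. Against HIV-1 the within-batch differences of EGR1 were 0.022, 0.77 and 0.0017, so that value rested on batch 2.

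EGR2 and EGR3, relatives of EGR1 induced with it, had 0 to 47 and 1 to 69 counts per library, and their log2 fold changes between HIV-1+LTA and HIV-1 had SE of 0.447 and 0.355 without passing. NR4A1 and NR4A3 had log2 fold changes of -0.20 (SE 0.141) and -0.31 (SE 0.17) when HIV-1+LTA was compared with HIV-1, below 0 in all 3 batches, and neither passed (edgeR adjusted p 0.534 and 0.403). NR4A2, at 13 to 64 counts, showed -0.12 (SE 0.317). NR4A1 and EGR3 share exon bases with antisense genes (754 and 164), and how the counting treated strand is not given in the sources used here.

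The 6 other immediate early members had a median log2 fold change of -0.084 for HIV-1+LTA relative to HIV-1, -0.047 relative to PBS and 0.011 for HIV-1 relative to PBS. BTG2, an antiproliferative protein and p53 target, had 4.98, 9.22 and 3.49 CPM in HIV-1+LTA replicates 1, 2 and 3, 4.60, 5.14 and 2.51 CPM in HIV-1 and 4.95, 3.96 and 2.71 CPM in PBS. HIV-1+LTA was the highest library of its batch each time, by a wide margin in batch 2, and the ranges overlapped. Group means were 5.90 ± 2.97 CPM in HIV-1+LTA, 4.08 ± 1.39 CPM in HIV-1 and 3.87 ± 1.125 CPM in PBS (SD, n = 3 each). The log2 fold change was 0.51 (SE 0.19, edgeR adjusted p 0.254) against HIV-1 and 0.56 (SE 0.189, edgeR adjusted p 0.215) against PBS. Without HIV-1+LTA replicate 2 these were 0.19 and 0.25, and without replicate 1 they were 0.75 and 0.82. MYC, the growth-promoting transcription factor, differed from HIV-1 by 0.097, -0.46 and -0.37 in batches 1, 2 and 3.

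SRF itself had 55.5, 58.5 and 50.3 CPM in HIV-1+LTA replicates 1, 2 and 3, 59.2, 59.9 and 61.9 CPM in HIV-1 and 56.0, 66.2 and 64.9 CPM in PBS. All 3 HIV-1+LTA libraries lay below all 3 HIV-1 libraries, as they did for IER2, which encodes a small nuclear protein, and SPRED1; 2.36% of all genes had groups separated this way. The exons of IER2 share 1608 bases with genes on the opposite strand, the most of any member, so its reads cannot be told from theirs without the strand setting. The log2 fold change of SRF was -0.14 (SE 0.0689, adjusted p 0.359) against HIV-1 and -0.18 (SE 0.0687, adjusted p 0.237) against PBS in edgeR. ZFP36, which encodes tristetraprolin and speeds the decay of cytokine mRNAs, and IER5 differed little from HIV-1, at 0.14 (SE 0.114) and -0.032 (SE 0.0493). For IER5 and SPRED1 the HIV-1+LTA libraries all lay below the PBS libraries, against 1.96% of all genes.

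The 6 Sprouty and SPRED genes had a median log2 fold change of -0.12 for HIV-1+LTA relative to HIV-1, 0.017 relative to PBS and 0.063 for HIV-1 relative to PBS. SPRED1, which brings neurofibromin to the membrane to switch RAS off, had 96.0, 78.4 and 82.5 CPM in HIV-1+LTA replicates 1, 2 and 3, 99.3, 101 and 99.4 CPM in HIV-1 and 97.2, 103 and 97.8 CPM in PBS. The HIV-1 and PBS libraries were tightly grouped in all batches, and every HIV-1+LTA library lay below them, replicate 1 by little. The means were 85.6 ± 9.23 CPM in HIV-1+LTA, 99.98 ± 1.09 CPM in HIV-1 and 99.2 ± 2.90 CPM in PBS (SD, n = 3 each). SPRED1 had the lowest unadjusted p of all members against HIV-1, with a log2 fold change of -0.23 (SE 0.0665, edgeR adjusted p 0.198), and -0.21 (SE 0.0664, edgeR adjusted p 0.207) against PBS. Without HIV-1+LTA replicate 1 it was -0.33 (SE 0.0522, adjusted p 0.00125) and -0.31 (SE 0.0521, adjusted p 0.00171) in edgeR, and without replicate 2 it was -0.15 and -0.13.

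SPRY4, a feedback inhibitor of growth factor receptor signalling, had 19.9, 16.8 and 38.4 CPM in HIV-1+LTA replicates 1, 2 and 3, 20.3, 21.2 and 49.3 CPM in HIV-1, and 20.6, 16.2 and 37.8 CPM in PBS. In batches 2 and 3 the HIV-1 library was high and the HIV-1+LTA and PBS libraries were close, while in batch 1 all 3 were close. The log2 fold change was -0.25 (SE 0.0803, edgeR adjusted p 0.219) for HIV-1+LTA relative to HIV-1 and 0.26 (SE 0.08, edgeR adjusted p 0.946) for HIV-1 against PBS. SPRY2 and SPRED2 differed from HIV-1 by -0.012 (SE 0.0987) and 0.0081 (SE 0.0589) with LTA, and SPRED3, a relative of SPRED1, by -0.27 (SE 0.141, adjusted p 0.387 in edgeR). SPRY1 gave 0.018, 1.13 and -0.83 in batches 1, 2 and 3, the last from 5 counts with HIV-1+LTA and 12 with HIV-1.

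The ETV genes encode ETS factors of the PEA3 group, and their median log2 fold change was -0.13 for HIV-1+LTA relative to HIV-1 and 0.10 for HIV-1 relative to PBS. ETV4 was below HIV-1 in each batch with LTA, by -0.066, -0.28 and -0.25, and so was ETV5, by -0.023, -0.16 and -0.19. Their log2 fold changes were -0.20 (SE 0.119) and -0.13 (SE 0.0551), with edgeR adjusted p of 0.435 and 0.303. ETV1 gave -0.0062, 0.44 and 1.25, and its batch 3 libraries held 20 counts with HIV-1+LTA, 9 with HIV-1 and 6 with PBS. Against PBS the HIV-1+LTA values of ETV4 and ETV5 were -0.034 (SE 0.118) and -0.024 (SE 0.0549).

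EPHA2, a receptor tyrosine kinase for ephrin-A ligands whose gene ERK activates, had 65.7, 61.9 and 54.5 CPM in HIV-1+LTA replicates 1, 2 and 3, 70.2, 83.6 and 61.3 CPM in HIV-1, and 66.8, 68.4 and 48.2 CPM in PBS. The HIV-1 library was the highest of its batch in all 3 batches, and the group ranges overlapped. EPHA2 had the lowest unadjusted p of all members between HIV-1 and PBS, with a log2 fold change of 0.24 (SE 0.0711, edgeR adjusted p 0.946), and it was -0.23 (SE 0.0713, edgeR adjusted p 0.204) when LTA was added. EPHA4, another ephrin receptor, was above HIV-1 with LTA in each batch, by 0.082, 0.043 and 0.35. PHLDA1, whose protein has a pleckstrin homology-like domain, showed -0.081 (SE 0.113).

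CCND1 had 286 CPM, 155 CPM and 631 CPM in HIV-1+LTA replicates 1, 2 and 3, 290.3, 414 and 899.7 CPM in HIV-1, and 308, 352 and 787 CPM in PBS. HIV-1+LTA was the lowest library of each batch, by the most in batch 2. The within-batch differences from HIV-1 were -0.022, -1.42 and -0.51, and those from PBS -0.11, -1.18 and -0.32. The log2 fold change was -0.63 (SE 0.187, edgeR adjusted p 0.201) against HIV-1 and -0.49 (SE 0.186, edgeR adjusted p 0.233) against PBS. DESeq2 gave wider errors, at -0.63 (SE 0.351, adjusted p 0.396) and -0.50 (SE 0.351, adjusted p 0.451). The edgeR values ran to -0.30 and -0.18 without HIV-1+LTA replicate 2, and to -0.89 and -0.77 without replicate 1. CCND1 shares 497 exon bases with LTO1 on the opposite strand.

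**Figure D3:**
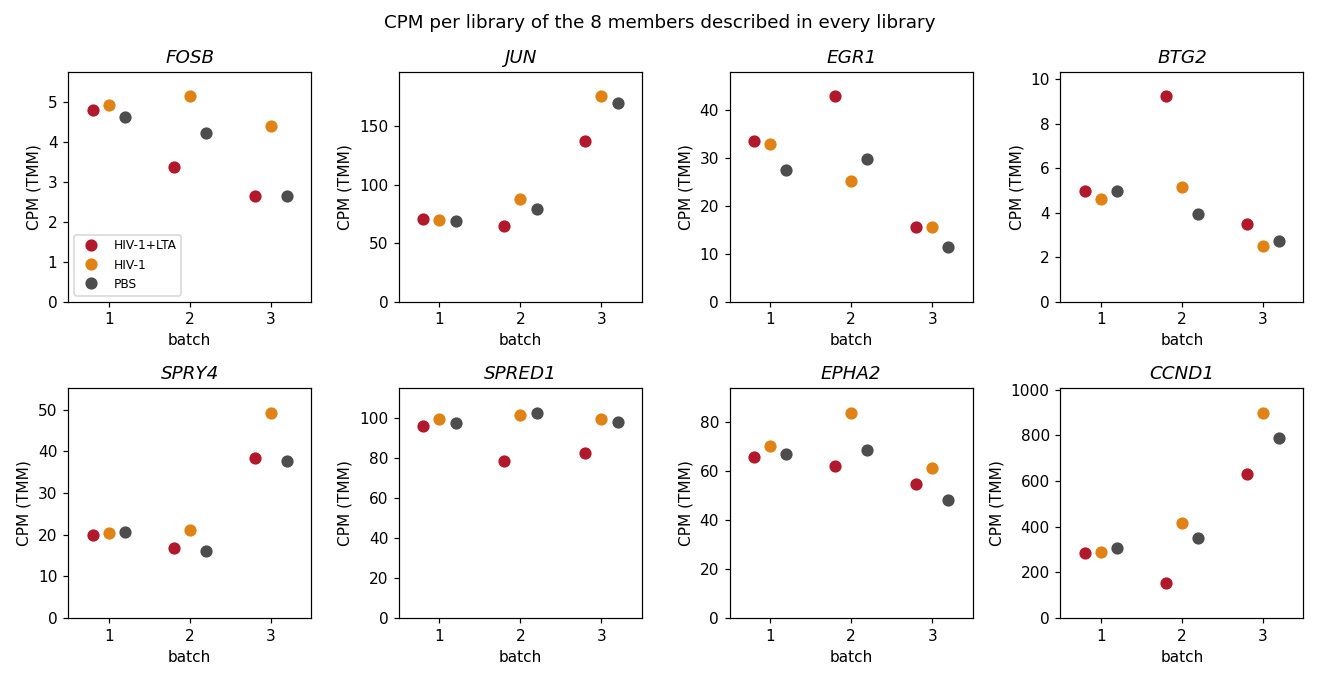
CPM (TMM-scaled) of 8 members in each of the 9 libraries, 1 panel per gene with the batch on the x axis and HIV-1+LTA, HIV-1 and PBS from left to right within a batch. SPRED1 has every HIV-1+LTA library below the HIV-1 and PBS libraries, at 96.0, 78.4 and 82.5 CPM, and JUN, SPRY4 and CCND1 are far higher in batch 3 than in batches 1 and 2.

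More members passed between batches than between treatments, and the same held for all genes tested. In the contrast of batch 3 with the mean of batches 1 and 2, 26 of 33 members passed in edgeR, 11 higher and 15 lower, against 71.2% of all genes (35.2% higher, 36% lower). A difference over 2-fold was seen for 12 members (36.4%), against 19.7% of all genes. A batch is 1 batch, so the p-values compare libraries and not repeated batches. The immediate early members did not move one way in batch 3. FOS, JUNB and EGR1 were lower: FOS was at 0.376 to 0.733 CPM in batch 3, against 1.26 to 2.41 CPM in batches 1 and 2, JUNB at 0.89 to 1.06 CPM against 2.98 to 5.34 CPM, and EGR1 at 11.3 to 15.5 CPM against 25.1 to 42.8 CPM. Their log2 differences were -1.50 (SE 0.271), -1.98 (SE 0.164) and -1.14 (SE 0.117), with edgeR adjusted p of 0.000334, 4.2e-07 and 2.85e-06. NR4A1 (-1.16), NR4A2 (-0.82), ATF3 (-0.87), BTG2 (-0.87), FOSB (-0.47) and JUND (-0.43) were lower too, while JUN, FOSL1, FOSL2, MYC and IER5 were higher and NR4A3 did not pass, at 0.17 (SE 0.147). Of the 30 other immediate early genes tested that are not members, 20 were higher and 8 lower in batch 3, with a median of 0.33. EGR2 was down to 0 to 2 counts per library in batch 3, and EGR3 to 1 to 8.

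Related genes parted ways between the batches. ETV1 was at 0.119 to 0.408 CPM in batch 3, against 7.47 to 13.8 CPM in batches 1 and 2, a log2 difference of -5.53 (SE 0.247, edgeR adjusted p 2.71e-09). ETV4 was lower (-0.85, SE 0.108) and ETV5 higher (0.62, SE 0.0467). SPRY1 was at 0.102 to 0.204 CPM in batch 3, against 1.85 to 4.32 CPM, a log2 difference of -4.03 (SE 0.346, edgeR adjusted p 6.13e-07), while SPRY4 was 2.21-fold higher and SPRED2 1.74-fold higher. SPRY2, SPRED1 and SPRED3 did not pass, at -0.15 (SE 0.0866), -0.013 (SE 0.0576) and 0.051 (SE 0.122). JUN was 2.22-fold higher, FOSL1 1.78-fold, FOSL2 1.59-fold and MYC 1.81-fold. EPHA4 stood at 90.4 to 115 CPM in batch 3, against 27.4 to 32.6 CPM, and was 3.54-fold higher, while EPHA2 was lower (-0.32, SE 0.0627). CCND1 was 2.64-fold higher. NR4A3, IER2, ZFP36 and SRF did not pass either. Summed stellate or mesenchymal markers were 6369 to 7324 CPM in batch 3, against 3336 to 4614 CPM in batches 1 and 2. That sum follows its abundant genes and does not show the direction of each marker. Over the 9 libraries VIM reached 3092 CPM and SPARC 1756 CPM, while DES stayed at or below 0.261 CPM. The T cell markers summed to 1.34 to 2.41 CPM in batch 3, against 12.9 to 18.3 CPM. Of them CD4 was the one detected at more than a trace. The biliary or epithelial markers summed to 3.08 to 3.95 CPM in batch 3, against 4.96 to 7.84 CPM. The part of these markers in the members' differences was not tested.

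**Figure D4:**
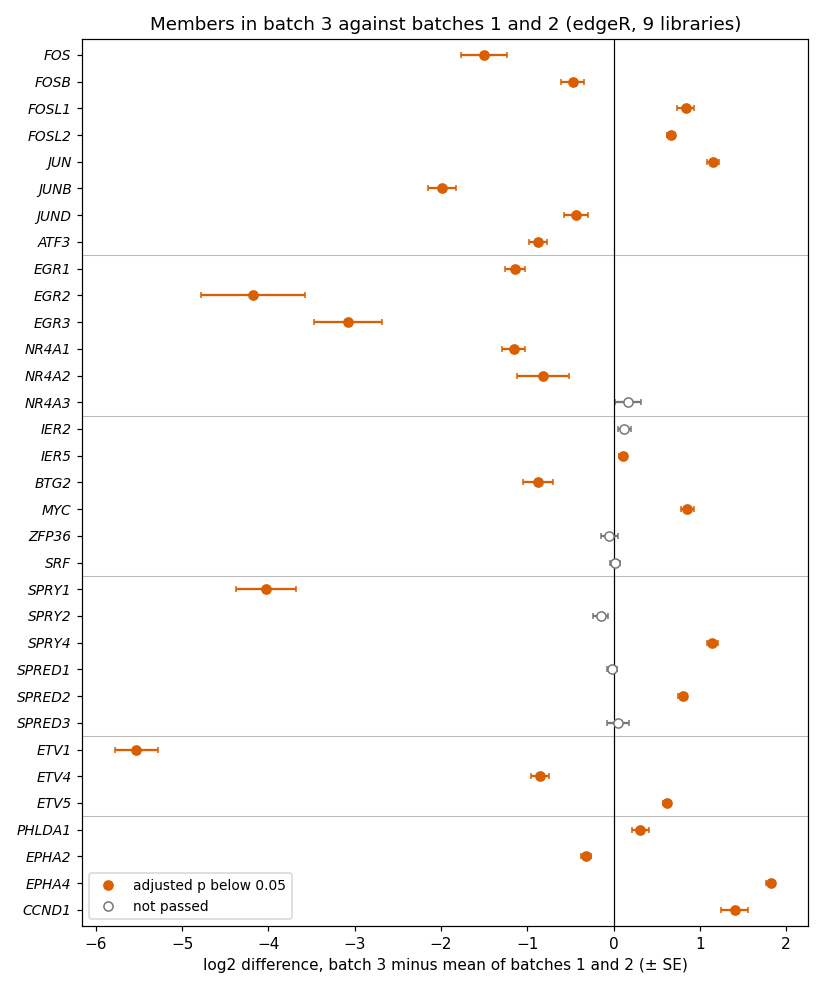
Log2 difference of each member between batch 3 and the mean of batches 1 and 2, with bars of 1 SE, from the edgeR fit of all 9 libraries; filled points passed an adjusted p of 0.05. ETV1 (-5.53) and SPRY1 (-4.03) lie far to the left beside EGR2 and EGR3, and EPHA4 (1.82) and CCND1 (1.40) farthest to the right.

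Other genes of the pathway give the setting. Of 31 other immediate early genes 30 were tested, and between HIV-1+LTA and HIV-1 5 stood above 0 and 25 below, with a median of -0.24. The median within-batch difference was 0.019, -0.35 and -0.43 in batches 1, 2 and 3. At an unadjusted p below 0.05, 18 were lower and 1 higher (63.3% of the list, 15.4% of all genes), and none passed in edgeR. DESeq2 with the block called DUSP1, the phosphatase that inactivates p38, JNK and ERK, at -0.45 (SE 0.117, adjusted p 0.013), and KLF2, a zinc-finger factor, at -0.65 (SE 0.181, adjusted p 0.0285); both fell. These were 2 of the 28 genes of the list with a DESeq2 adjusted p, against 1.82% of 13401 genes. The edgeR adjusted p of DUSP1 and KLF2 were 0.186 and 0.171, and DESeq2 without HIV-1 replicate 2 called 0 of 19773 genes in this comparison. Between HIV-1+LTA and PBS, DESeq2 gave -0.46 (SE 0.117, adjusted p 0.0232) for DUSP1 and -0.32 (SE 0.181, adjusted p 0.335) for KLF2. DUSP1 was the 1 gene of the list called there, against 1.93% of 12239 genes. In edgeR the adjusted p of DUSP1 and KLF2 against PBS were 0.205 and 0.340. For HIV-1+LTA against PBS 11 of the 30 stood above 0 and 19 below, with a median of -0.089. For HIV-1 against PBS 23 of the 30 stood above 0 and 7 below, with a median of 0.12. That comparison again shares the HIV-1 libraries with the one of HIV-1+LTA and HIV-1.

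The 23 core genes from GRB2 to the ERK kinases and their RSK substrates showed no such lean, with 12 above 0, 11 below and a median of 0.0047 between HIV-1+LTA and HIV-1. RPS6KA2, an ERK-activated ribosomal S6 kinase, rose in DESeq2 by 0.51 (SE 0.119, adjusted p 0.00452) against HIV-1 and by 0.39 (SE 0.118, adjusted p 0.0485) against PBS, while its edgeR adjusted p were 0.171 and 0.205. It was the 1 gene of the 23 called by DESeq2 in each of these comparisons, against 1.82% of 13401 and 1.93% of 12239 genes. Without PBS replicate 2, DESeq2 called 0 of 19698 genes between HIV-1+LTA and PBS. The 6 SRF cofactors stood 3 above and 3 below 0, with a median of 0.020. Of 11 other ERK outputs and feedback genes, the ERK phosphatases DUSP4 to DUSP7 among them, 3 stood above and 8 below, with a median of -0.078. Of 16 p38, JNK and AP-1 partner genes 15 were tested, 7 above and 8 below, with a median of -0.0098. No gene of these 3 lists passed in edgeR or DESeq2 in that comparison.

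Gene layout was compact in part of the members. The canonical transcript had 1 exon in 4 of 33 members (12.1%; JUN, JUNB, JUND and IER5), against 5.22% of 19205 protein-coding genes. The 6 other immediate early members spanned a median of 4351 bases and the AP-1 and ATF genes 7194.5 bases, against 27383 bases for protein-coding genes, while the ETV genes spanned 64005 bases. Of the 166 peaks in the ChIP-seq list, from cells given HIV-1, 1 lay within 100 kb of a member's start: EGR3, at 94823 bases. This is 3.03% of the members and 2.23% of 32350 genes, from 1 library, so no difference between groups can be drawn from it.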

How the data were processed

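RNA-seq counts of 9 libraries and 1 list of ChIP-seq peaks were used. Per the submitters' processing notes and series text, tools included STAR, HTSeq, fastp and SAMtools (RNA-seq) and Bowtie2, bedtools and deepTools (ChIP-seq) on hg19; versions, the strand setting, the antibody and the peak threshold are not given in the sources used here. The authors' deposited table for RNA-seq holds raw counts by gene symbol. They also deposited a DESeq2 table which, per the file headers, holds log2 fold changes and their errors, the raw and the adjusted p-value, the Wald score, and a mean signal of size-factor-scaled counts. The table names no comparison; a DESeq2 fit with batch gave all 19990 of its log2 fold changes within 0.01 for HIV-1+LTA against PBS. The deposited peak list holds peak positions and names, of which the positions were used.

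Genes were filtered with filterByExpr (16117 of 35303 kept, 25265 with any count). Counts were tested by quasi-likelihood in edgeR 4.0.16, scaled by TMM, in 1 fit of all 9 libraries with batch as a block, Benjamini-Hochberg adjusted over all genes tested, at an adjusted p of 0.05. DESeq2 1.42.0 used the block and genes whose counts summed to 10 or more, and leaves the adjusted p of low genes undefined. CPM are TMM-scaled, log2 CPM used a prior count of 2, and R was 4.3.3. Alternatives were fits without the block, limma-voom (limma 3.58.1), other scalings and filters, only the 6 libraries compared, and leaving out each library or batch. DESeq2 with each library left out was added after seeing the data.

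Replicate number equals batch number per the labels, so it pairs libraries across groups. As a check, deviations from group means over 9321 genes of at least 10 CPM correlated at 0.817 to 0.983 between same-numbered libraries and at -0.942 to 0.894 between others. No 2 libraries were copies: the chi-square over its degrees of freedom was at least 3.80 in 36 pairs. The fits were tested on simulated data.

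Members given in every library are those called in edgeR or DESeq2 with the block, the 3 with the lowest p in each comparison, and those moving the same way by more than 0.2 in all batches; SRF was added after its values were seen. The members, lists and tests were chosen with earlier results of these data known. Exon lengths, overlaps and spans come from GENCODE on hg19, and promoter windows from RefSeq.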

Additional observations from a re-analysis of the deposited data

How the results depend on the processing

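The count of members called depended on single libraries, on HIV-1+LTA replicate 1 the most in edgeR. With 1 library left out, edgeR with the replicate block called 0 to 13 members between HIV-1+LTA and HIV-1 and 0 to 9 between HIV-1+LTA and PBS, and 0 to 2390, 0 to 2648 and, for HIV-1 against PBS, 0 to 2 of all genes; the highest counts of the first 2 comparisons came without HIV-1+LTA replicate 1. Without PBS replicate 1, 90 genes and no member passed for HIV-1+LTA against PBS. Without batch 1 the calls were 8 and 6 members and 1567, 1733 and 5 genes. Without the filter on low counts, edgeR called 10 members and 1016 genes against HIV-1, 4 members and 1045 genes against PBS, and 30 genes for HIV-1 against PBS; the cause was not tested. DESeq2 with the replicate block called 247, 232 and 1 genes on the edgeR filter and 244, 236 and 3 genes with a total of at least 10, in the order HIV-1+LTA against HIV-1, HIV-1+LTA against PBS and HIV-1 against PBS, and 1 member, EGR1, in the second of these under both filters. Fitting just the 6 libraries of a comparison called 2 genes for HIV-1 against PBS. Fits with no replicate block in edgeR or DESeq2, limma-voom and the other scalings called 0 members in the 3 comparisons.

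Over the alternatives, 12 members changed sign at least once for HIV-1+LTA against HIV-1, 17 for HIV-1+LTA against PBS and 14 for HIV-1 against PBS, in 36, 54 and 35 of 693 values each, none of them past the adjusted threshold. With library size alone, the members' median was 0.073 for HIV-1+LTA against PBS, with 22 above 0, and -0.091 against HIV-1, with 14 above 0. The batch 3 contrast called 22 to 26 members with 1 library left out and 25 to 27 under other settings. Counts were lowest for EGR2, EGR3 and NR4A2, with at most 47, 69 and 64 in a library, and for SPRY1 and ETV1 in batch 3.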
